A study of Homo sapiens with 4 samples.

Results

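Recurrent translocation partners and the D-type cyclins were examined in ARP-1 and MM.1S, established human lines grown from multiple myeloma, the cancer that arises from plasma cells. The 8 genes were listed by name: MAF, NSD2 and FGFR3 as translocation partners, CCND1, CCND2 and CCND3 as cyclins, and ITGB7 and NUAK1 as targets of MAF. A named probe set was found for 6 of the 8, of 14884 genes named on the arrays, and these 6 had 7 probe sets. Expression of ITGB7 and NUAK1 was not analysed here.

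In many myelomas a chromosome break joins an oncogene to the enhancers of the immunoglobulin heavy chain locus on chromosome 14, and the partner gene defines a genetic subtype. MAF on chromosome 16 is a transcription factor of the basic leucine zipper class, NSD2 on chromosome 4 methylates histone H3, FGFR3 nearby is a receptor tyrosine kinase, and CCND1 on chromosome 11 and CCND3 on chromosome 6 encode cyclins. D-type cyclins bind CDK4 and CDK6 and start the phosphorylation of RB1 that lets a cell enter the cell cycle, and nearly every myeloma raises at least one of them. CCND2, ITGB7 and NUAK1 are known targets of MAF, and MM.1S is a line known to carry a MAF translocation.

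There were 4 arrays of total RNA, 1 for each line and hairpin. Cells were infected with a lentivirus that carried a short hairpin RNA, either a control (CTR-KO) or one against MIF (MIF-KO), and were sorted for a green fluorescent marker. The name KO thus stands for a knockdown, and all 4 groups carry the virus and the marker. Groups follow titles and genotype labels, while the descriptions of the ARP-1 arrays give the reverse. MIF, a secreted cytokine, followed the titles, at 49.6% of control in ARP-1 and 40.0% in MM.1S. No source used here tells of separate cultures. With 1 array for each line and hairpin there is no spread of replicates. The p-values are scaled by how far the lines differ in their response, which may be technical. In RNA of whole cultures a change in the mix of cells and a change within cells cannot be told apart.

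The arrays did not sort by line. The pair of smallest root mean square log2 difference over 7442 tested genes was MIF-KO ARP-1 with CTR-KO MM.1S, at 0.32, and the pairs of CTR-KO ARP-1 with each of these were the widest, at 0.55. Of plasma cell markers, 6 of 9 were named and all 6 passed the filter on low values, with IRF4 between 11.81 and 12.10 on the log2 scale. The 2 B cell markers, 1 T cell, 2 myeloid and 1 stroma marker that were named all lay below the filter, at no more than 4.67, and summed intensities of these lists were between 5.09 and 34.4 on every array. Their part in the results was not tested.

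Promoters are shown for MAF, CCND3 and NSD2. MAF and CCND3 differed by at least 0.5 in each line with opposite signs, as did 7.40% of all tested genes. The lines did not overlap for NSD2, as for CCND1, CCND2 and 27.4% of all tested genes. Each promoter is the stretch from 250 bases before to 50 bases after a start site, from RefSeq on GRCh38.p14. Windows of 6 of the 8 genes were searched, and those of CCND1 and CCND2 were not used here. MAF lies at chr16:79600688-79600987, CCND3 at chr6:41939156-41939455, which is 1 of its 3 windows and was chosen after the motif search, and NSD2 at chr4:1871143-1871442. The strand is minus for MAF and CCND3 and plus for NSD2, each written 5′ to 3′ along the gene. Capitals mark the motifs found.
MAF: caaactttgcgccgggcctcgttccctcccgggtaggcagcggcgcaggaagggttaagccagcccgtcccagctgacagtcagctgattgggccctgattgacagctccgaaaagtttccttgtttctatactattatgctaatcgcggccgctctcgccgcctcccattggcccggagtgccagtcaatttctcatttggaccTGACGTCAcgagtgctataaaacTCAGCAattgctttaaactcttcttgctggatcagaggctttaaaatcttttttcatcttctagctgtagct
CCND3: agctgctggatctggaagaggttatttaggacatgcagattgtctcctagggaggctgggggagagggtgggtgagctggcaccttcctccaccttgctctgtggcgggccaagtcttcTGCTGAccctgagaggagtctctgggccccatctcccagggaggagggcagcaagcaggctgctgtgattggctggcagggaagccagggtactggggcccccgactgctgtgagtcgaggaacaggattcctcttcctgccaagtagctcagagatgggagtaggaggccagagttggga
NSD2: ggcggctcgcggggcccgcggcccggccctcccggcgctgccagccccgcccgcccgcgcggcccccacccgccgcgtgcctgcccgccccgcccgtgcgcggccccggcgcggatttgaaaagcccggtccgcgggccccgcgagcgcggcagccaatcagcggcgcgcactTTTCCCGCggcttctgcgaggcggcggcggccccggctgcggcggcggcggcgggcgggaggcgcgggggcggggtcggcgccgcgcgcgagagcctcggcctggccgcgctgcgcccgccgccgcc

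Both strands were searched for the core of the MAF recognition element (TGCTGA), the cAMP response element (TGACGTCA), E2F sites (TTTCCCGC or TTTGGCGC) and the E-box (CACGTG). With the start site at 0, the MAF window held a cAMP response element from -45, present in 1.85% of all 35116 promoter windows of this length, and the MAF core on the opposite strand (TCAGCA) from -22. The CCND3 window shown held the MAF core from -131, a motif present in 17.3% of windows, and its other 2 windows held no match. No match was found in the windows of FGFR3, ITGB7 and NUAK1. The NSD2 window held an E2F site from -77, as did 2.27% of windows for this pair of motifs. No E-box was found in the 8 windows of members, against 7.26% of all windows, and no motifs overlapped in the windows shown. A match is a string of letters and no evidence of binding.

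MAF was well above the filter on every array and differed little between the lines on average. Its probe set intensity was 533 and 783 on the control and MIF hairpin arrays of ARP-1, and 786 and 541 on those of MM.1S. The 4 values fell into close pairs that crossed line and hairpin: CTR-KO ARP-1 and MIF-KO MM.1S were 0.022 apart on the log2 scale and the other 2 arrays 0.0058 apart, with 0.53 between the pairs. MIF-KO minus CTR-KO was thus 0.55 in ARP-1 but -0.54 in MM.1S, and MM.1S minus ARP-1 was 0.56 under CTR-KO and -0.53 under MIF-KO. The mean line difference was 0.014 (SE 0.38, 95% interval -0.95 to 0.98, 2 arrays per line), with limma's adjusted p at 0.99986. The mean hairpin difference was 0.0079 (SE 0.38, interval -0.96 to 0.98), and its sign turned once all arrays were given the same median. The difference in response between the lines took up 99.9% of the variation (sum of squares) of MAF over the 4 arrays, against 55.0% over all genes tested.

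NSD2 had lines that did not overlap. Intensities were 260.5 and 206 on the control and MIF hairpin arrays of ARP-1, and 307 and 305 on those of MM.1S. Both MM.1S arrays thus lay above both ARP-1 arrays, as for 15.8% of all genes tested. MM.1S minus ARP-1 was 0.24 under CTR-KO and 0.56 under MIF-KO on the log2 scale. The mean was 0.40 (SE 0.31, interval -0.39 to 1.20) and did not pass, with an adjusted p of 0.99986 in limma. The hairpin difference was -0.34 in ARP-1 but -0.011 in MM.1S, with a mean of -0.17 (SE 0.31, interval -0.97 to 0.62; limma adjusted p = 0.99995). FGFR3 lay below the filter, with intensities of 23.6, 21.8, 23.4 and 21.6 in the same order of arrays. Its highest and lowest values were 1.10-fold apart, with both CTR-KO arrays slightly above both MIF-KO arrays. This order was found for 9.47% of genes tested, among which FGFR3 was not. Fitted without a filter, its hairpin difference was -0.12 (SE 0.19, interval -0.58 to 0.34) and its line difference -0.015 (SE 0.19, interval -0.47 to 0.44).

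CCND1 was lowest on CTR-KO ARP-1 and highest on MIF-KO MM.1S, without a call in either comparison. Its intensity was 64.3 and 72.7 on the control and MIF hairpin arrays of ARP-1, and 73.0 and 83.8 on those of MM.1S. Its hairpin differences were of one sign and similar size, 0.18 in ARP-1 against 0.20 in MM.1S, with groups as titled. The mean was 0.19 (SE 0.25, interval -0.45 to 0.83; limma adjusted p = 0.99995). Exchange of the ARP-1 arrays gave a mean of 0.011. Between the lines the mean difference was also 0.19 (SE 0.25, interval -0.45 to 0.84; limma adjusted p = 0.99986). MIF-KO ARP-1 lay only 0.0048 below CTR-KO MM.1S, so the lines narrowly failed to overlap.

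CCND2 was higher in ARP-1 by both of its probe sets. The brighter one read 1217 and 979.9 on the control and MIF hairpin arrays of ARP-1, and 676 and 911 on those of MM.1S, and the dimmer one 225, 187, 131 and 164. The order of the arrays was the same for both probe sets. Both ARP-1 arrays lay above both MM.1S arrays, as for 11.6% of all genes tested. By the brighter, MM.1S minus ARP-1 was -0.85 under CTR-KO and -0.10 under MIF-KO, so the gap rested mostly on the CTR-KO arrays. The mean was -0.48 (SE 0.32, interval -1.30 to 0.35; limma adjusted p = 0.99986). MIF-KO minus CTR-KO was -0.31 in ARP-1 and 0.43 in MM.1S, and by the dimmer probe set -0.27 and 0.33. The mean hairpin difference of the brighter was 0.059 (SE 0.32, interval -0.76 to 0.88). The array with the lowest MAF, CTR-KO ARP-1, had the highest CCND2, and the array with the highest MAF, CTR-KO MM.1S, had the lowest, although MAF barely differed within each of its close pairs.

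CCND3 had the widest spread of the members, with the highest array 2.01-fold above the lowest. Intensities were 57.5 and 34.1 on the control and MIF hairpin arrays of ARP-1, and 28.7 and 41.2 on those of MM.1S, and the lines overlapped. These values are low, and the lowest, CTR-KO MM.1S at 4.84 on the log2 scale, lay below the 4.97 of the filter. MIF-KO minus CTR-KO was -0.75 in ARP-1 but 0.52 in MM.1S, the reverse of MAF in each line. The mean hairpin difference was -0.12 (SE 0.35, interval -1.01 to 0.78; limma adjusted p = 0.99995). MM.1S minus ARP-1 was -1.01 under CTR-KO and 0.27 under MIF-KO, so the sign turned between the hairpins. By log2 of intensity plus 16, the difference under CTR-KO was -0.72, and the hairpin difference in ARP-1 was -0.55, short of 1.5-fold. The mean line difference was -0.37 (SE 0.35, interval -1.26 to 0.53; limma adjusted p = 0.99986).

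**Figure D1:**
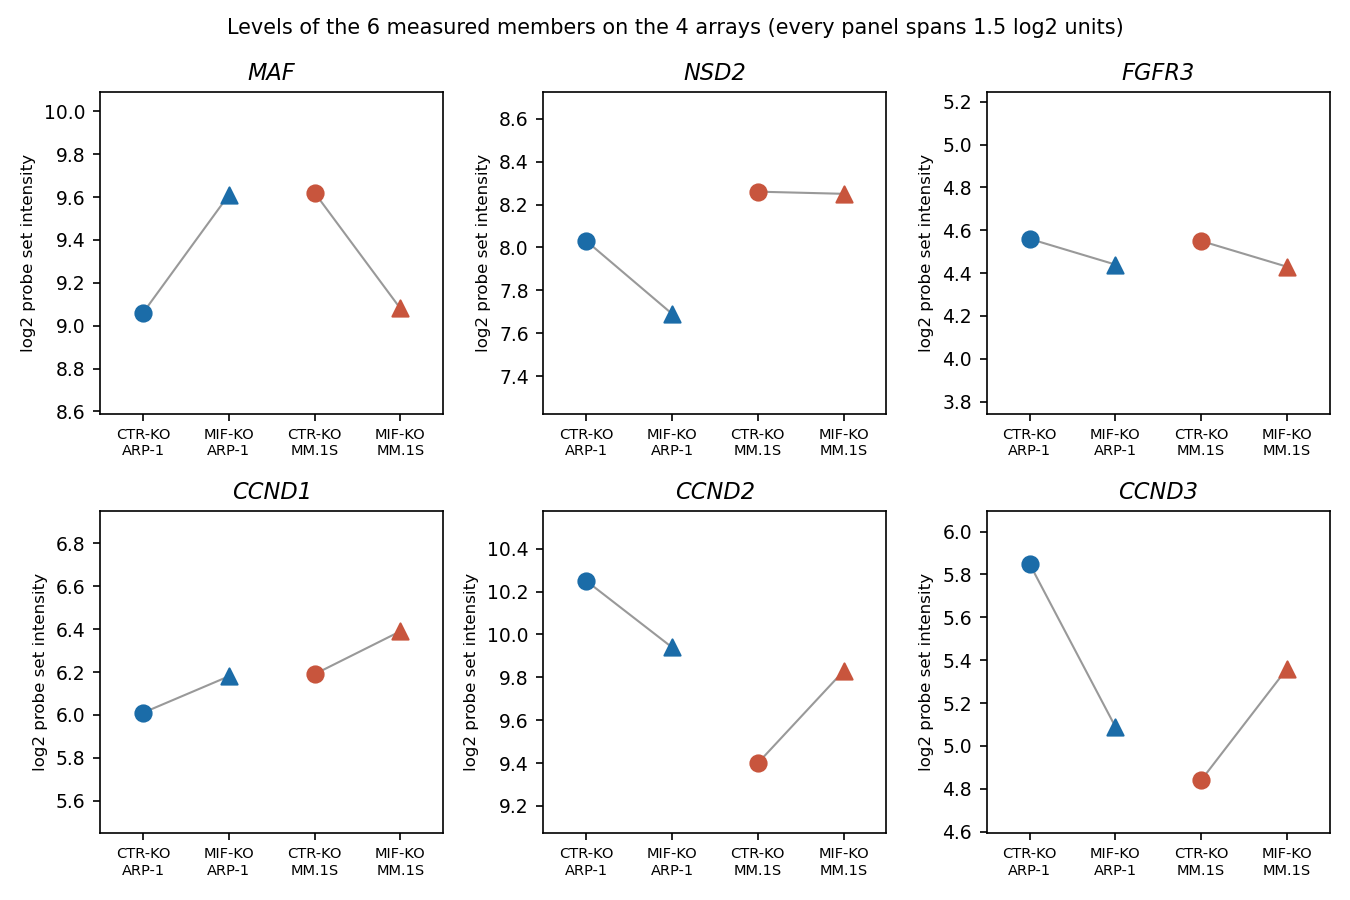
Log2 probe set intensity (vertical axis, 1.5 log2 units in every panel) of the 6 measured members on each of the 4 arrays (horizontal axis), with ARP-1 in blue, MM.1S in red, circles for CTR-KO and triangles for MIF-KO. Each point is 1 array and grey lines join the arrays of a line. MAF crosses between the lines, FGFR3 is nearly level, and NSD2 is higher on both MM.1S arrays.

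None of the 5 tested members passed in the fit over all genes. MIF, the target of the hairpin, did not pass either, at -1.17 (SE 0.29, limma adjusted p = 0.99995). A lack of calls in this fit thus does not show that a member is unchanged. For MIF-KO against CTR-KO, 0 of the 7442 genes (0%) had a limma adjusted p below 0.05, and 29 genes (0.390%) but 0 members had an unadjusted p below 0.05. For MM.1S against ARP-1 limma called 0 genes (0%), and 87 genes (1.17%) but 0 members had an unadjusted p below 0.05. The residual of this fit, with 1 degree of freedom, is how far the responses of ARP-1 and MM.1S differ. With the ARP-1 arrays exchanged, as their descriptions have it, 401 genes (5.39%) were called for the hairpin and 0 members. MAF then differed by -0.55 (limma adjusted p = 0.0792), CCND3 by 0.64 (limma adjusted p = 0.0788) and CCND2 by 0.37 (limma adjusted p = 0.189).

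By size, 1 tested member (CCND3) was at least 1.5-fold lower in MIF-KO ARP-1, where 22.8% of all tested genes differed by this much, 11.9% lower and 10.9% higher. In MM.1S 0 members reached 1.5-fold in either direction, against 8.01% of genes, 5.12% higher and 2.89% lower. Between the lines CCND2 and CCND3 were at least 1.5-fold lower in MM.1S under CTR-KO, where 22.3% of genes differed by this much, 11.1% lower and 11.2% higher. Under MIF-KO 0 members reached it, against 12.6% of genes, 8.22% higher and 4.37% lower. With groups as titled, opposite directions of the hairpin difference in the lines were seen for 3 of 5 tested members (MAF, CCND2 and CCND3) and for 67.6% of genes. Of genes, 37.5% were lower in ARP-1 and higher in MM.1S, as CCND2 and CCND3 were, and 30.1% the reverse, as MAF was. The lines did not overlap for 3 of 5 (NSD2, CCND1 and CCND2), against 27.4% of genes, with 15.8% higher in MM.1S and 11.6% lower. The hairpins did not overlap for 0 of 5 tested members, against 20.6% of genes, 11.2% higher and 9.47% lower with the MIF hairpin. Ranges over the 4 arrays under 1.5-fold were found for MAF, NSD2 and CCND1, as for 63.5% of genes.

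**Figure D2:**
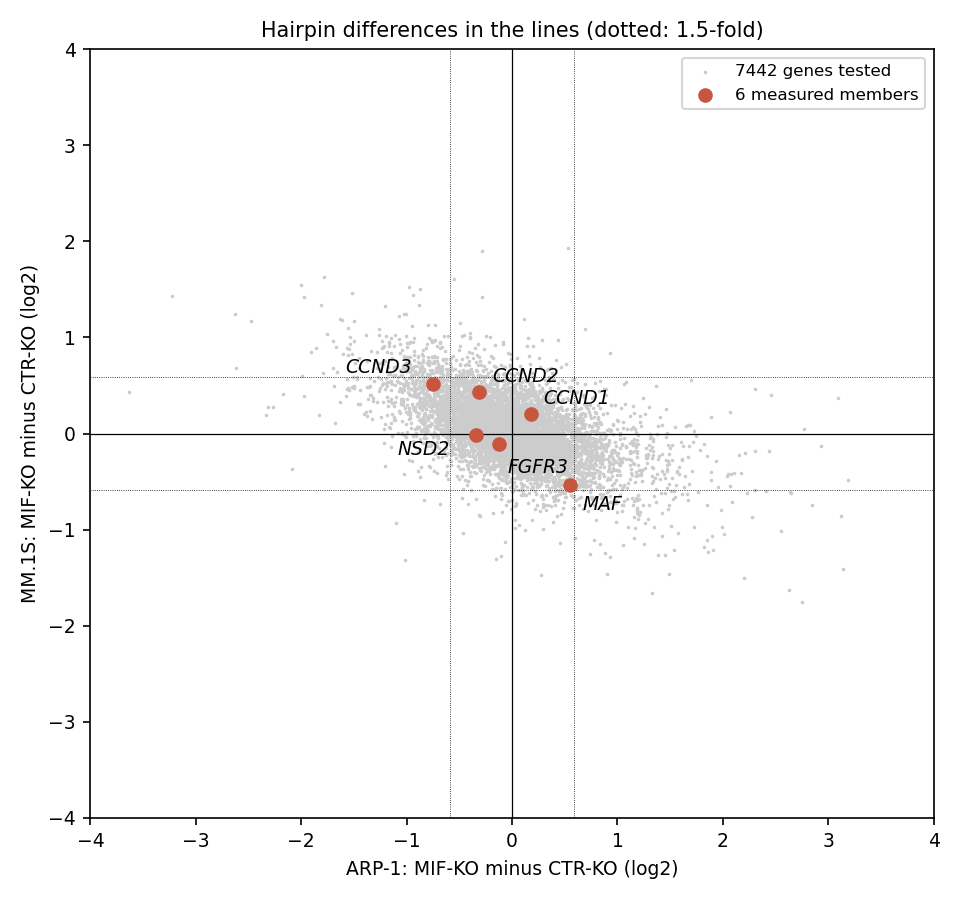
Log2 difference of MIF-KO from CTR-KO in ARP-1 (horizontal axis) and in MM.1S (vertical axis). Grey points are the 7442 tested genes, red points the 6 measured members, and dotted lines mark 1.5-fold. MAF sits at 0.55 and -0.54 and CCND3 at -0.75 and 0.52, in opposite corners.

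**Figure D3:**
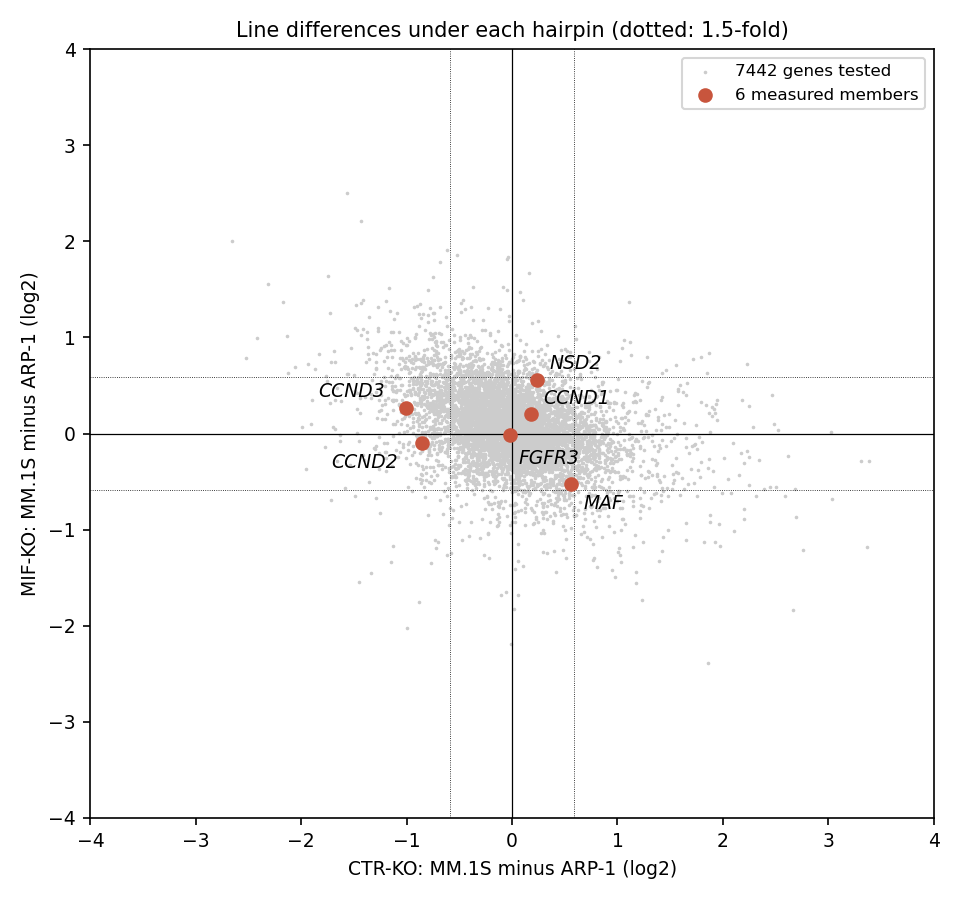
MM.1S minus ARP-1 on the log2 scale under CTR-KO (horizontal axis) and under MIF-KO (vertical axis), with the 7442 tested genes in grey and the 6 measured members in red. CCND2 and CCND3 lie left of the dotted line of 1.5-fold under CTR-KO, and NSD2 and CCND1 are above 0 on both axes.

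Genes described as raised in MAF-subtype myeloma differed among themselves in which arrays were high. Of the 8 on the list 6 were named and 4 tested; 0 passed in limma, and all 4 had opposite signs in the lines, as did 67.6% of all genes tested. For CCR1 and DEPTOR the sign in MM.1S rests on differences of 0.030 and -0.048. TLR4, the lipopolysaccharide receptor, read 127 and 22.7 on the control and MIF hairpin arrays of ARP-1, and 46.8 and 105 on those of MM.1S. It was thus high on the arrays where MAF was low, a separation and direction found for 29.9% of all genes tested. Its lowest value, MIF-KO ARP-1 at 4.51 on the log2 scale, lay below the filter. By log2 of intensity plus 16, its hairpin difference in ARP-1 was -1.88 in place of -2.48. In MM.1S it was 0.95 in place of 1.17. CCR1, a chemokine receptor, read 461 on CTR-KO ARP-1, its highest value, against 221 to 258 on the other arrays, and its difference in MM.1S turned sign under quantile normalization. DEPTOR, an inhibitor of mTOR, was highest on MIF-KO ARP-1, at 114, against 54.5 to 63.8. RND3 had differences of 0.64 in ARP-1 against -0.31 in MM.1S, with the signs of MAF. The median differences of the list, -0.097 in ARP-1 and -0.0092 in MM.1S, lay beside -0.026 and 0.036 over all genes tested.

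Of 13 listed paralogs of the members, 9 were named and 7 tested, and 0 passed in limma. Between the hairpins 0 of the 7 reached 1.5-fold in ARP-1, against 22.8% of all genes tested, and 0 in MM.1S, against 8.01%. MAFG, a small MAF protein, had the crossed pattern of MAF, with 88.9 and 107 on the control and MIF hairpin arrays of ARP-1, and 119 and 88.2 on those of MM.1S. Arrays separated in this way and direction for 22.1% of all genes tested. The histone methyltransferases NSD1 and NSD3 were higher on both MM.1S arrays, as were NSD2 and 15.8% of all genes tested. MM.1S minus ARP-1 was 0.19 and 0.41 for NSD1 and 0.54 and 0.39 for NSD3, under CTR-KO and MIF-KO. The mean line differences, 0.30 (SE 0.28) for NSD1 and 0.47 (SE 0.30) for NSD3, did not pass in limma. FGFR1 was tested and differed by 0.72 between the lines under MIF-KO and -0.090 under CTR-KO, whereas FGFR2 and FGFR4 lay below the filter.

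Neighbours of the members give a view of the same chromosome regions. Of 5 genes listed beside NSD2 and FGFR3 on chromosome 4, 4 were named and tested and 0 passed in limma. LETM1, a mitochondrial ion transport protein, was 282 on CTR-KO ARP-1 and 163 to 189.7 on the others. The histone mRNA binding protein SLBP was 921 and 599 on the control and MIF hairpin arrays of ARP-1, and 549 and 756 on those of MM.1S. MM.1S minus ARP-1 was -0.79 for LETM1 and -0.75 for SLBP under CTR-KO, but 0.17 and 0.34 under MIF-KO, whereas NSD2 was higher under each. NELFA and TMEM129 ranged over 0.43 and 0.26 on the log2 scale. The 2 named markers of the NSD2 subtype, DSG2 and JAM3, lay between 2.45 and 2.83 on every array, below the filter of 4.97. All 7 named genes of the list for CCND1 (its neighbours on chromosome 11 and genes raised in that subtype) were below the filter in their means, and the highest single value was 5.06. WWOX, the large gene on chromosome 16 in which many MAF breaks fall, ranged over 0.20 on the log2 scale. Its values were low, from 4.90 to 5.10, close to the 4.97 of the filter. Of the partners and ligands of ITGB7, 2 of 5 were named and 1 tested, the ligand MADCAM1. Its hairpin differences were -0.028 in ARP-1 and -0.70 in MM.1S, where the MIF-KO value of 4.84 lay below the filter. By log2 of intensity plus 16 the MM.1S difference was -0.49, short of 1.5-fold.

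**Figure D4:**
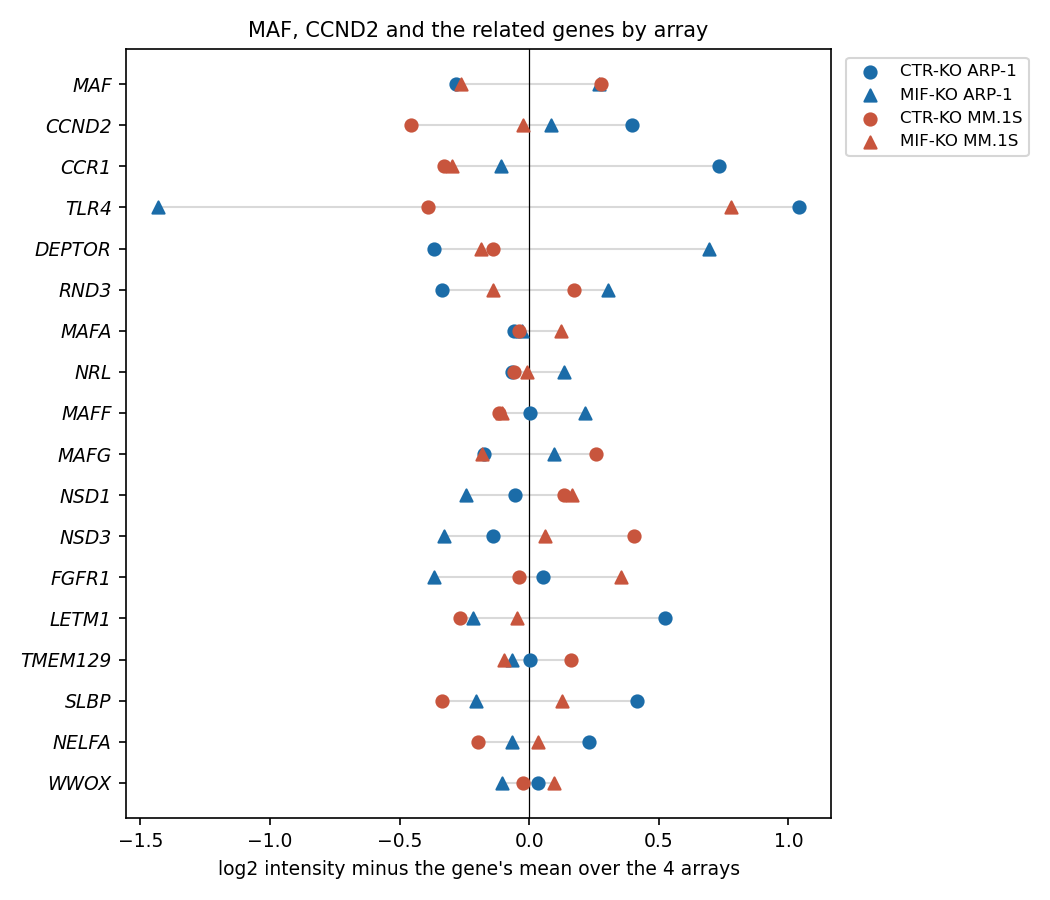
Log2 intensity of each gene minus its own mean over the 4 arrays (horizontal axis) for MAF, CCND2 and the tested paralogs, MAF-subtype genes and neighbours (rows), with 1 point per array. TLR4 has the widest spread, with CTR-KO ARP-1 and MIF-KO MM.1S to the right, and MAF and MAFG have these arrays to the left.

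A list of cell cycle genes around the D-type cyclins held their kinase partners, inhibitors, the retinoblastoma family, and the E-type cyclins, CDK2 and E2F factors that act after them. Of the CDK inhibitors on the list only CDKN2A was named, so the counts below hardly cover inhibitors. Of 19 listed genes, 13 were named and tested. They were listed with earlier results of these data known and were read on the same 4 arrays, so they are not replicates. The counts below describe these arrays and were not tested. Of the 13, 11 had lower values with the MIF hairpin in ARP-1 but higher ones in MM.1S, against 37.5% of all genes tested. These are the directions of CCND2 and CCND3. For AMBRA1, counted among the 11, the sign in MM.1S rests on a difference of 0.00065. In ARP-1 7 of 13 were at least 1.5-fold lower, against 11.9% of all genes tested, and 0 higher, against 10.9% (median -0.59, against -0.026). In MM.1S 4 of 13 were at least 1.5-fold higher, against 5.12%, and 0 lower, against 2.89% (median 0.47, against 0.036). Several lay close to the cutoff: CDK6 and CDK2 at 0.59 in MM.1S, and CDK4 and E2F1 at -0.59 in ARP-1. CDK6 in MM.1S fell short of it with arrays shifted to the same median, at 0.57, and under quantile normalization, at 0.54. Over both lines 0 passed in limma. CDK6, a kinase partner of D-type cyclins, was 1005 and 354 on the control and MIF hairpin arrays of ARP-1, and 558 and 840.3 on those of MM.1S. CDK4, the other kinase, had differences of -0.59 in ARP-1 but -0.0026 in MM.1S.

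For E-type cyclins and E2F factors, which act after D-type cyclins, the high arrays were those where MAF was low, CTR-KO ARP-1 and MIF-KO MM.1S. CCNE2, a cyclin E, was 122 and 53.2 on the control and MIF hairpin arrays of ARP-1, and 54.9 and 111 on those of MM.1S. CCNE1 read 230.0 and 121 in ARP-1, then 137 and 248 in MM.1S, and the transcription factor E2F3 259 and 87.6, then 101 and 149.8. RBL2, a relative of the retinoblastoma protein, was the exception that was higher with the MIF hairpin in each line, by 0.20 and 0.26. CTR-KO ARP-1 with MIF-KO MM.1S did not overlap the other 2 arrays for MAF, which was lower there, and for CCND3, which was higher. Such a separation was found for 52.0% of genes, 22.1% in the direction of MAF and 29.9% in that of CCND3.

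**Figure D5:**
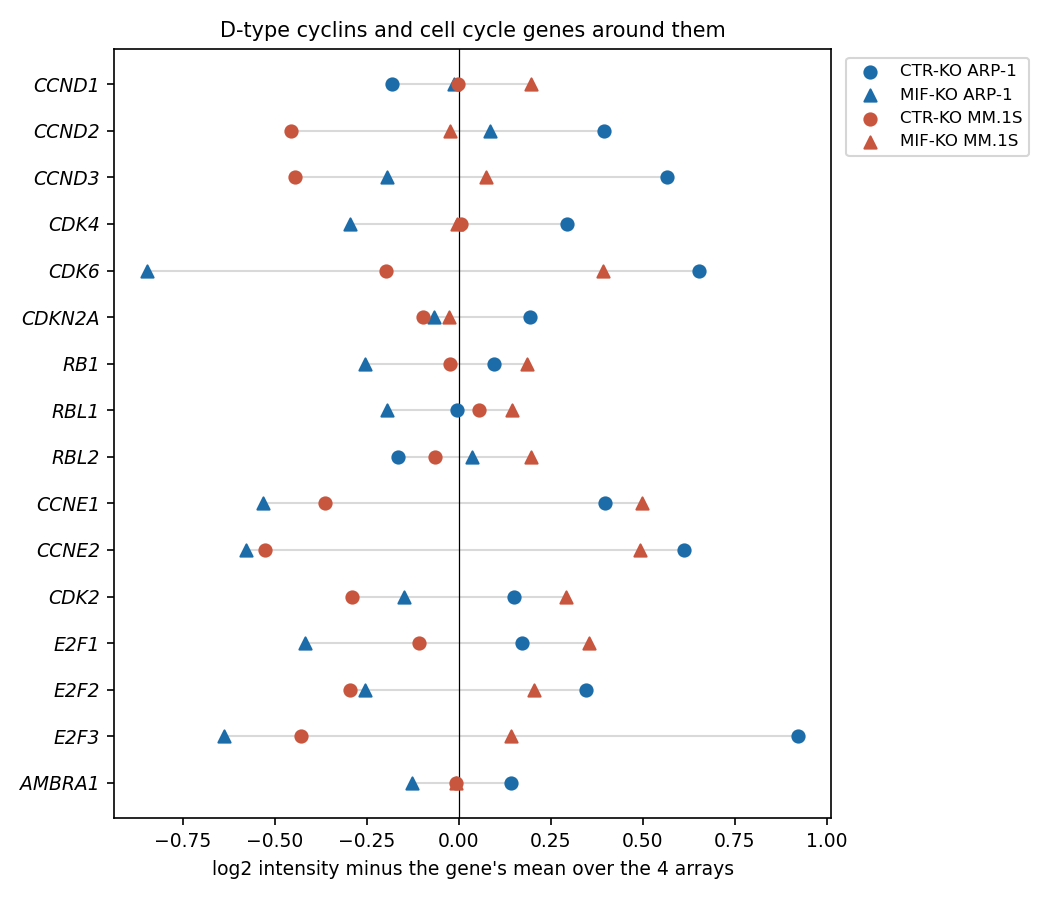
Log2 intensity of each gene minus its own mean over the 4 arrays (horizontal axis) for the 3 D-type cyclins and the 13 tested cell cycle genes of the list around them (rows), with 1 point per array. For CCNE1, CCNE2, E2F1, E2F2, CDK2 and CDK6 the points of CTR-KO ARP-1 and MIF-KO MM.1S lie right of 0 and the others left, as for CCND3; CCND1 does not share this order.

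CCND3 was the tested member whose range reached 1 on the log2 scale, as for 10.5% of genes, and its profile was set against those of all tested genes. The most similar, by root mean square difference of profiles centred on their means over the 4 arrays, were TRUB2 at 0.010, a pseudouridine synthase, MYO19 at 0.019, a myosin of mitochondria, and METTL1 at 0.024, a tRNA methyltransferase. In all, 89 genes lay within 0.1 of the CCND3 profile.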

How the data were processed

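Total RNA was labelled with a whole-transcript kit, per the labels' protocols. Linear intensities of 53617 probe sets were deposited. The submitters' processing notes name RMA and limma, without version or role, and the genome build is not given in the sources used here. Log2 was taken of the deposited intensities with no pseudocount. A platform annotation named 16098 probe sets (14884 genes), and 37519 are unnamed here. The probe set of the highest mean stood for a gene, and 7442 genes with a mean log2 at or above the median of 4.97 were tested. Intensities of different probe sets are not compared, and the number of arrays limits the precision.

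limma (version 3.58.1, R 4.3.3) was fitted to all 4 arrays with the terms cell line and hairpin and eBayes with a trend (1 residual and 3.99 prior degrees of freedom). Cell line is the pairing, from the labels. P-values were adjusted by Benjamini-Hochberg over the 7442 genes, at a threshold of 0.05, and the script was tested on simulated data. Differences within a line or hairpin rest on 1 array a side and have no test or error. Members, lists and named genes (at most 4 tested genes of the widest range per list, and the 3 most similar profiles for a member with a range of at least 1) were chosen with earlier results of these data known. FGFR2, FGFR4, DSG2, JAM3, CDK2, CDK4, CDKN2A, AMBRA1, RBL2, E2F1, E2F2 and IRF4 fall outside that rule and were chosen after their values were seen. Intervals are 95% intervals from limma.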

Additional observations from a re-analysis of the deposited data

Results flagged for a closer look

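With groups as titled, the hairpin difference had opposite signs in the lines for 3 members. The descriptions of the ARP-1 arrays give the reverse, although MIF followed the titles. Under the descriptions the signs of these members, and of the genes that follow, would match between the lines by construction. The response in MM.1S minus that in ARP-1, on the log2 scale, was -1.09 for MAF, 0.74 for CCND2 and 1.28 for CCND3. With 1 array per line and hairpin the difference between the responses was not tested, here or for the genes that follow, and 67.6% of all tested genes had opposite signs.

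Among cell cycle genes around the D-type cyclins the same quantity was 2.10 for CDK6, 1.79 for CCNE1, 2.21 for CCNE2 and 2.13 for E2F3. Among genes of the MAF subtype it was 0.86 for CCR1, -1.11 for DEPTOR and -0.95 for RND3. It was 3.65 for TLR4, whose MIF-KO ARP-1 value lay below the filter. For paralogs it was -0.71 for MAFG, 0.22 for NSD1 and 0.81 for FGFR1. For neighbours it was 0.96 for LETM1, 1.08 for SLBP, 0.54 for NELFA and 0.27 for WWOX, and for plasma cell markers 1.84 for SDC1, 1.90 for CD38 and -1.08 for MZB1. The signs of CCR1 and NSD1 in MM.1S changed with the scaling of the arrays.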

How the results depend on the processing

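No member was called in either comparison under any alternative that was fitted. With the ARP-1 arrays exchanged the hairpin difference turned to -0.55 for MAF, 0.16 for NSD2 and 0.64 for CCND3, those of CCND1 and FGFR3 moved to 0.011 and 0.0024, and 401 genes were called in place of 0; the exchange reverses the ARP-1 difference by construction. It also left 0 members 1.5-fold apart between the lines under CTR-KO, in place of 2. Arrays shifted to the same median gave MAF a hairpin difference of -0.0088. Quantile normalization brought MAF past 1.5-fold, which made 2 members in ARP-1, 1 in MM.1S, 3 between the lines under CTR-KO and 1 under MIF-KO, and log2 of intensity plus 16 left 0 in ARP-1, since the constant shrinks low values. Leaving out 1 array leaves 0 residual degrees of freedom and the value of the remaining pair: hairpin differences then ran from -0.54 to 0.55 for MAF, -0.31 to 0.43 for CCND2 and -0.75 to 0.52 for CCND3, and line differences from -0.53 to 0.56 for MAF and -1.01 to 0.27 for CCND3. Without the replicate block (the cell line as pairing) the hairpin difference of MAF stayed at 0.0079, and 0 genes were called. CCND3 is not tested at a mean log2 of at least 6, and FGFR3 only without a filter.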

Other observations

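SLAMF7, a surface receptor of plasma cells, was lower in MM.1S under each hairpin, by -0.95 under CTR-KO and -0.60 under MIF-KO on the log2 scale (mean -0.77, SE 0.28, limma adjusted p = 0.99986). It read 119.6 and 122 on the ARP-1 arrays and 62.1 and 80.3 on the MM.1S arrays, so the lines did not overlap, as for 11.6% of genes in this direction. The intensity of MZB1, a chaperone of antibody secretion, had opposite differences in the lines, with 566 and 774 on the control and MIF hairpin arrays of ARP-1, and 615 and 399 on those of MM.1S. Syndecan SDC1 read 471 and 184 on the control and MIF hairpin arrays of ARP-1, and 337 and 471 on those of MM.1S, with differences of -1.36 and 0.48. CD38, a surface enzyme, read 113 and 41.8, then 41.0 and 56.2, with differences of -1.44 and 0.46. IRF4, a transcription factor of plasma cells that was picked after its values were seen, read between 3579 and 4379.8.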
